A study of Mus musculus with 25 samples.

Results

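Zfp57 and 9 imprinted protein-coding genes, Peg3, Ndn, Snrpn, Magel2, Zdbf2, Plagl1, Dlk1, Cdkn1c and Grb10, were followed in the brain of the ageing mouse. They were taken as named symbols and found by their Ensembl identifiers, 10 rows of the 47729 genes in the table of counts. RNA of the brain hemisphere was sequenced from males of C57BL/6, an inbred mouse strain, aged 2, 9, 15, 24 and 30 months, with 5 libraries at each age. The labels give no treatment and no altered allele at any age. The tissue is a mixture of cell types, so fewer cells of a type and less RNA per cell cannot be told apart in what follows. All 10 genes passed the filter on low counts, among 17472 genes tested at 2 to 24 months and 17799 tested over all ages.

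An imprinted gene is expressed mainly from the copy inherited from one parent. The choice is carried by DNA methylation set in the germ line at control regions, and Zfp57, a KRAB zinc finger protein that is not itself imprinted, binds the methylated letters TGCCGC there in embryonic cells and helps to keep that methylation. Many imprinted genes are active in the developing and adult brain, and Peg3, Ndn, Magel2 and Dlk1 are known for high expression in the hypothalamus.

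The upstream sequences of the 2 members that differed most between 24 and 2 months, Zfp57 and Dlk1, and of the 2 whose upstream window holds the letters bound by Zfp57 are shown first. RefSeq start sites on GRCm38.p6 were available for 9 members, with 16 windows of 250 bases before a start. TGCCGC, searched on both strands with no overlap to another motif, was found in 2 of these 16 windows, and in 8.68% of all 32851 windows of the same length. The Zdbf2 window lies before the more distant of its 2 RefSeq starts, upstream of the gene as GENCODE M21 draws it. It holds 3 matches, and 0.0731% of all windows hold that many or more. The Plagl1 window holds 1 match. Capitals mark each match, and the sequences read 5′ to 3′ on the strand of the gene.
Zdbf2, chr1:63200108-63200357, plus strand: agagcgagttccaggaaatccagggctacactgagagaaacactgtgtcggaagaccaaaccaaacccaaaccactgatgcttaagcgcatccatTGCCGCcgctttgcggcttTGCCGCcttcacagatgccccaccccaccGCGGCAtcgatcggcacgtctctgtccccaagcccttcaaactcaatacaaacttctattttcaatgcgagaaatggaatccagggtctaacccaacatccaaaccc
Plagl1, chr10:13090582-13090831, plus strand: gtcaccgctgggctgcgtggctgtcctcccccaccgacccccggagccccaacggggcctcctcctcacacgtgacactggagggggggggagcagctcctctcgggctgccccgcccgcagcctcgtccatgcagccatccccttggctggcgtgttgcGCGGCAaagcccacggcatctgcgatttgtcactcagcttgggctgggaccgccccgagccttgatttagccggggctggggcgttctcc
Zfp57, chr17:37000913-37001162, plus strand: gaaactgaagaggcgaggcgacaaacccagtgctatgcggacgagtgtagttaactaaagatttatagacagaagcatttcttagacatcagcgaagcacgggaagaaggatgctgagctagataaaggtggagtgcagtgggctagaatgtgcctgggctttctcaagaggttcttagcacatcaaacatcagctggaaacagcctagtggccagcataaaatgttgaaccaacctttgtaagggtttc
Dlk1, chr12:109452573-109452822, plus strand: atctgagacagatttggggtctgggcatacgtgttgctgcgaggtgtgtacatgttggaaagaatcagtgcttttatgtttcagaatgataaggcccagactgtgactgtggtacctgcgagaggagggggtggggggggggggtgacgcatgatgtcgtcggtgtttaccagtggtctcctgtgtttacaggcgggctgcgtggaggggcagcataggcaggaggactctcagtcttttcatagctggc
The windows of Zfp57 and Dlk1 hold no such letters. A match describes the sequence only, and control regions outside these windows were not searched.

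Levels are CPM, that is counts scaled to a library total of 1000000, with TMM factors that adjust the totals. Library totals ran from 17.8 to 31.3 in units of 1000000 counts. Replicates 2 to 5 of 30 months stood apart from the other 21 libraries, because genes of high GC content read high in them. The GC gap is the median log2 ratio of the 10% of genes richest in GC minus that of the poorest 10%, and it was 0.88 to 1.61 in these 4 libraries. Replicate 1 of 30 months had a gap of 0.10, and the younger libraries had gaps of -0.24 to 0.15. Values of 30 months are therefore given with a GC correction as well, and without those 4 libraries. The neuronal markers summed to 7019 to 8585 CPM over all libraries, and none was at 0 at any age. Markers of liver summed to 51.3 to 233 CPM at 24 months and to 0.970 to 173 CPM at 2 months. Choroid plexus markers summed to 57.1 CPM in replicate 1 of 9 months and to 456 to 951 CPM in the other libraries. The part of liver and choroid plexus transcripts in the results was not tested.

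Per kilobase of exon, over the 20 libraries of 2 to 24 months, Snrpn was the most abundant member at 178 CPM per kilobase. Ndn followed at 64.8 and Peg3 at 58.0 CPM per kilobase. Grb10 stood at 9.59, Zdbf2 at 6.27, Zfp57 at 2.56 and Plagl1 at 2.32 CPM per kilobase. Cdkn1c at 1.68, Magel2 at 1.47 and Dlk1 at 0.345 CPM per kilobase were the least abundant. Dlk1 rested on 20 to 86 counts per library and Cdkn1c on 56 to 135, against 5390 to 24754 for Peg3. The level of Snrpn is uncertain, since 27.3% of its exon bases are shared with Gm38393, on the same strand, and reads there may be split or dropped. Snurf, which shares further exon bases with Snrpn, is listed at 0 in every library. Cdkn1c shares 30.7% of its exon bases with the antisense gene Gm44732, listed at 0 in every library, and the labels do not state that strand was used in counting.

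**Figure D1:**
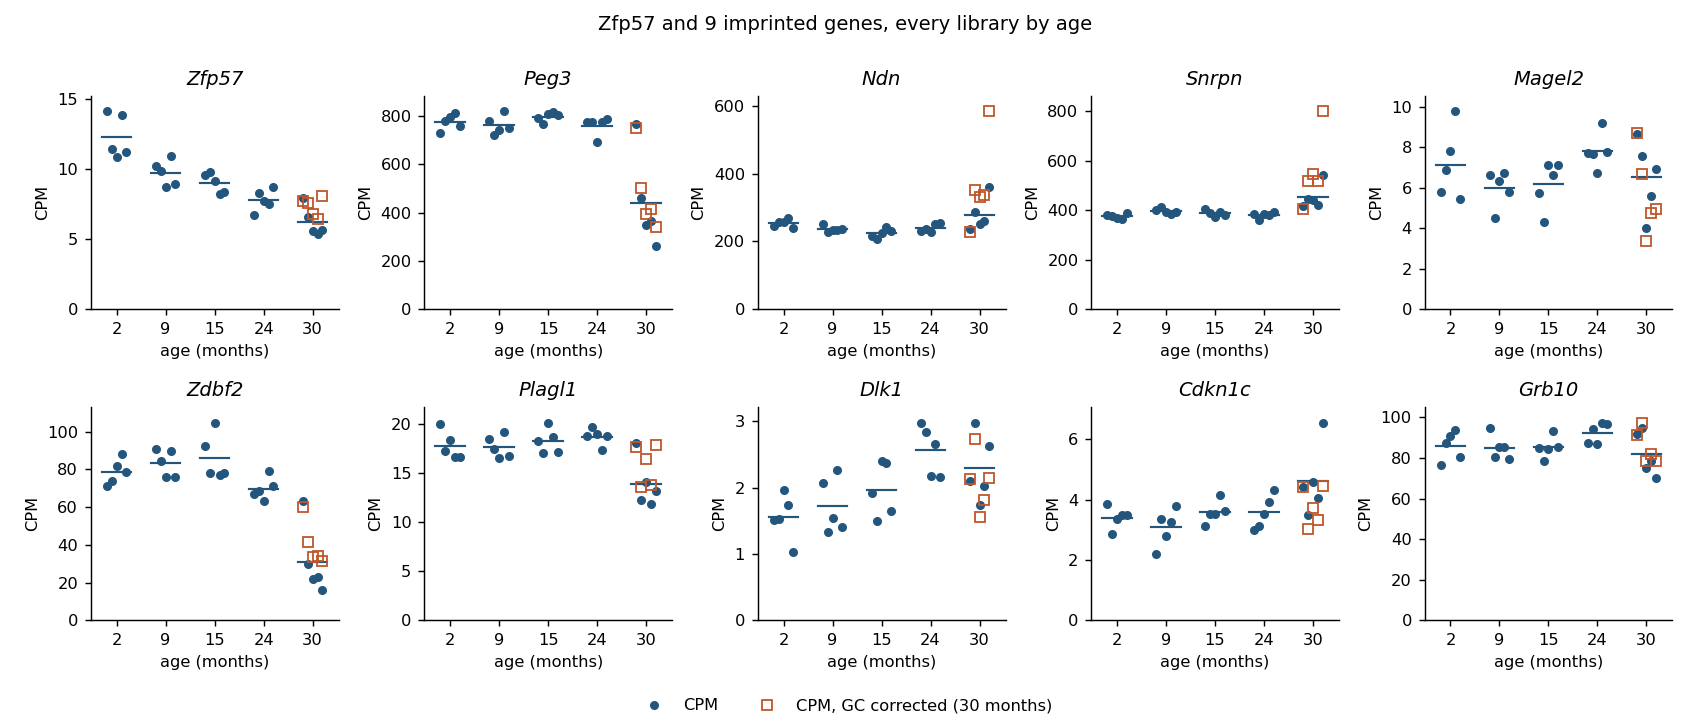
Level of each member in CPM (vertical axis, from 0) in every library by age in months (horizontal axis). Filled points are libraries, lines are means of 5, and open squares are the 30 month libraries after GC correction. The mean of Zfp57 without correction is lower at each later age, that of Dlk1 is highest at 24 months, and Peg3 and Zdbf2 drop in 4 of the 5 libraries of 30 months.

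Zfp57 (ENSMUSG00000036036, GRCm38 chromosome 17, 37001163 to 37010635) was lower at every older age than at 2 months. It stood at 14.1, 11.4, 10.8, 13.9 and 11.2 CPM in the 2 month libraries and at 10.2, 9.83, 8.73, 10.9 and 8.91 CPM in the 9 month libraries. The 15 month libraries gave 9.60, 9.77, 9.13, 8.23 and 8.38 CPM, and the 24 month libraries 6.72, 8.27, 7.75, 7.53 and 8.73 CPM. The 5 libraries of 24 months and the 5 of 15 months all lay below the lowest library of 2 months, and those of 9 months overlapped it by 1 library. At 24 months the mean was 7.80 ± 0.763 CPM, against 12.3 ± 1.57 CPM at 2 months (SD, n = 5 each). The log2 fold change was -0.65 ± 0.0842 (SE; edgeR adjusted p = 2.31e-06). At 15 against 2 months Zfp57 fell by 0.44 (adjusted p = 0.000888) and at 9 against 2 months by 0.33 (adjusted p = 0.00646) on the log2 scale. The slope from 2 to 24 months was -0.0285 ± 0.0039 per month on the log2 scale (adjusted p = 1.62e-05). Neighbouring older ages did not differ past the test, with a log2 fold change of -0.10 at 15 against 9 months (adjusted p = 0.483) and of -0.21 at 24 against 15 months (adjusted p = 0.0706). Without replicate 5 of 24 months or replicate 4 of 15 months the last step passed it (adjusted p = 0.0363 and 0.0478).

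Markers of immature neurons were lower at 24 months as well. Their summed level was 425 to 443 CPM at 24 months and 479 to 530 CPM at 2 months. It ran from 444 to 468 CPM at 9 months and was lower at 15 months, at 405 to 437 CPM. At 30 months, without a GC correction, it was 448 to 610 CPM and overlapped that of 2 months. Of the 8 listed markers, Nrep (log2 fold change -0.78), Dcx (-0.44), Sox11 (-0.44), Sox4 (-0.49) and Igfbpl1 (-0.98) passed the test at 24 against 2 months. Cd24a (0.01), Tubb3 (-0.07) and Eomes (-0.54) did not. In that comparison 11.7% of all genes tested fell. The part of these markers in the fall of Zfp57 was not tested. The level of Zfp57 was set beside those of 12740 genes over the 20 libraries of 2 to 24 months. The 5 genes most like it were Cyp26b1, an enzyme that degrades retinoic acid (Pearson r = 0.899, Spearman rho = 0.884), the ephrin receptor gene Epha3 (0.892 and 0.875), the growth factor gene Pdgfc (0.887 and 0.802), Dcaf10 (0.886 and 0.892) and Atxn7l3b (0.874 and 0.856). These values describe the 20 libraries, which share the ages and the scaling, and carry no test. All 5 fell at 24 against 2 months, from -0.55 for Epha3 to -0.19 for Atxn7l3b on the log2 scale. That is no separate result, since they were picked for likeness to Zfp57 over the same libraries.

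Dlk1 (ENSMUSG00000040856, chromosome 12, 109452823 to 109463336), a membrane protein related to Notch ligands and expressed from the paternal copy, was higher at 24 months. It stood at 1.51, 1.53, 1.96, 1.74 and 1.02 CPM at 2 months, at 2.07, 1.32, 1.54, 2.26 and 1.4 CPM at 9 months and at 1.92, 1.49, 2.39, 2.37 and 1.65 CPM at 15 months. The 24 month libraries gave 2.98, 2.84, 2.18, 2.66 and 2.17 CPM, all above the highest library of 2 months. Libraries that do not overlap between these ages were found in 14.7% of genes tested. The mean was 2.56 ± 0.375 CPM at 24 months, against 1.55 ± 0.348 CPM at 2 months (SD, n = 5 each), with a log2 fold change of 0.70 ± 0.173 (SE; edgeR adjusted p = 0.00398). At 15 and at 9 against 2 months it was 0.33 (adjusted p = 0.256) and 0.13 (adjusted p = 0.703), and at 24 against 15 months 0.37 (adjusted p = 0.105). The slope was 0.0328 ± 0.00752 per month on the log2 scale (adjusted p = 0.0035).

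The summed level of 13 hypothalamus markers had a median of 36.96, 37.15, 38.77 and 49.46 CPM at 2, 9, 15 and 24 months. It was 47.3, 53.8, 45.0, 49.5 and 50.8 CPM in the 24 month libraries, against 33.9, 41.5, 37.0, 47.5 and 30.0 CPM in those of 2 months. At 9 months it ran from 32.9 to 47.0 CPM and at 15 months from 28.3 to 45.4 CPM, and no marker was at 0 in every library of an age. Of the markers, the peptide genes Avp (log2 fold change 0.65, adjusted p = 0.036), Agrp (0.63, adjusted p = 0.0361) and Ghrh (0.86, adjusted p = 0.0483) rose at 24 against 2 months. The other 9 of the 12 tested did not pass and ran from -0.01 for Sim1 to 0.77 for Oxt, with Pmch at 0.03 and Hcrt at 0.002. So 3 of the 12 rose, beside 11% of all genes tested. Of the 12, 11 had a log2 fold change above 0, beside 8853 of the 17472 genes tested, and their median was 0.569. The log2 of the summed level of the 12 tested markers then served as a covariate, in a fit added after the data were seen. There the log2 fold change of Dlk1 at 24 against 2 months was 0.29 (adjusted p = 0.308). The slope of Dlk1 with the covariate was 0.0158 per month (adjusted p = 0.221). At 24 against 2 months that fit gave Zfp57 a log2 fold change of -0.70 (adjusted p = 5.24e-05). It also called Peg3 (-0.11, adjusted p = 0.0357), Ndn (-0.18, adjusted p = 0.00148) and Zdbf2 (-0.32, adjusted p = 0.0397), which the fit without the covariate did not. The covariate was itself higher at 24 than at 2 months, so this fit cannot fully separate it from age. The genes most like Dlk1 over the 20 libraries were Itih3, a secreted matrix protein gene (r = 0.845, rho = 0.824), the oestrogen receptor gene Esr1 (0.819 and 0.795), Aifm2 (0.805 and 0.771), Pnmal2 (0.802 and 0.826) and M6pr (0.789 and 0.78). As for Zfp57, these values carry no test.

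**Figure D2:**
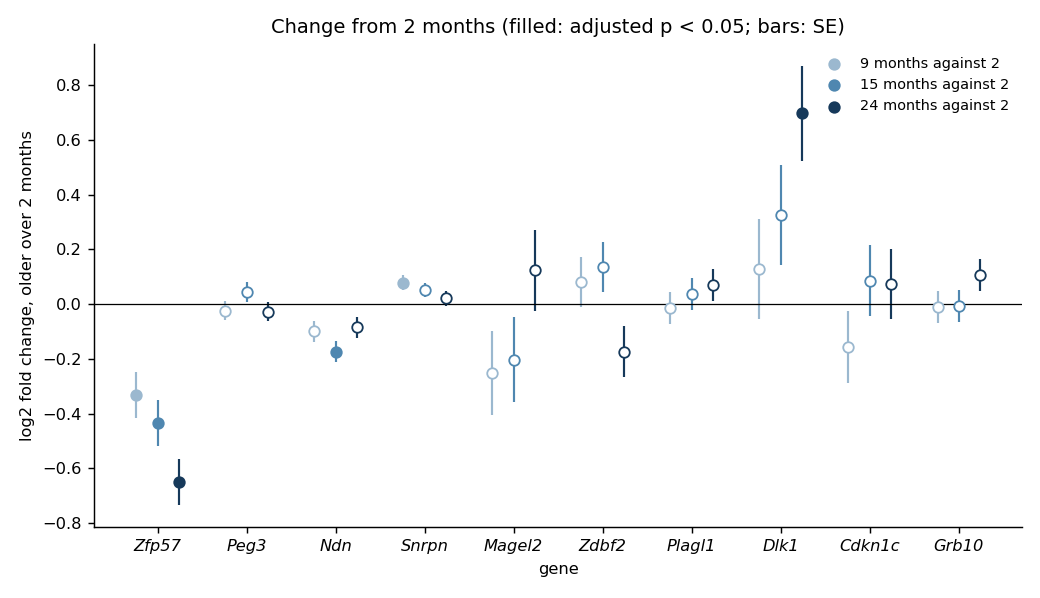
Log2 fold change of each member at 9, 15 and 24 months over 2 months (vertical axis), with the standard error as a bar. Filled points passed an adjusted p of 0.05 and open points did not. Zfp57 is lower at all 3 ages, down to -0.65 at 24 months, and Dlk1 is higher at 24 months, at 0.70, while no other member is past the test at 24 months.

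Of the 10 members 1 rose and 1 fell at 24 against 2 months, Dlk1 and Zfp57, while 11% of all genes tested rose and 11.7% fell, 22.8% in all. At 15 against 2 months none rose and 2 fell, Zfp57 and Ndn, beside 6.1% and 6.95% of all genes, 13.1% in all. At 9 against 2 months Snrpn rose and Zfp57 fell, beside 7.92% and 6.96% of all genes, 14.9% in all. At 15 against 9 months edgeR called none of the 10, also at an unadjusted p under 0.05, and DESeq2 called none either, while edgeR called 4.45% of all genes higher and 6.45% lower, 10.9% in all. At 24 against 15 months Zdbf2 fell and none rose, beside 12.2% of all genes that fell and 11.9% that rose, 24.1% in all. The slope from 2 to 24 months was called for Dlk1 and Zfp57, beside 8.44% of all genes upwards and 8.32% downwards, 16.8% in all. The share of members called was near that of all genes. The median log2 fold change of the 10 at 24 against 2 months was 0.0448, beside 0.00241 over all genes tested. Libraries of the 2 ages did not overlap for Zfp57 and Dlk1 at 24 against 2 months and for Zfp57 at 15 against 2 months, where 10.5% of all genes did the same. They overlapped for every member at 9 against 2 months (9.96% of all genes did not), at 15 against 9 months (8.57%) and at 24 against 15 months (16.5%).

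Ndn, Magel2 and Snrpn belong to the imprinted domain on chromosome 7 whose human counterpart is lost in Prader-Willi syndrome, and all 3 are expressed from the paternal copy. Ndn (62346569 to 62350262), the growth suppressor necdin of neurons, had 216, 209, 226, 243 and 231 CPM at 15 months, against 246, 258, 259, 269 and 241 CPM at 2 months. The highest library of 15 months lay above the lowest of 2 months, so the ages overlapped. The log2 fold change was -0.17 ± 0.0382 (SE; edgeR adjusted p = 0.00316), and the call was lost with all 25 libraries in the fit (-0.18, adjusted p = 0.332). At 24 against 2 months it was -0.08 (adjusted p = 0.112), and -0.18 with the hypothalamus covariate (adjusted p = 0.00148), which also called a slope of -0.00906 per month (adjusted p = 0.0039). Snrpn (59982495 to 60140219), which encodes the splicing protein SmN, had 401, 413, 393, 385 and 391 CPM at 9 months, against 380, 379, 368, 364 and 387 CPM at 2 months. Its log2 fold change of 0.08 ± 0.0267 passed the test (adjusted p = 0.0444), and the call was lost without any 1 of 2 months replicates 2 to 4 or 9 months replicates 1 to 3 (adjusted p = 0.0544 to 0.126). It was also lost with library totals not adjusted by TMM (0.05, adjusted p = 0.139) and with all 25 libraries in the fit (adjusted p = 0.557). Magel2 (62377010 to 62381640), which helps a ubiquitin ligase to act on endosomes, passed no test among these ages in the fit without a covariate. With the hypothalamus covariate it was lower at 9 than at 2 months (-0.29, adjusted p = 0.035), where it stood at -0.25 without it (adjusted p = 0.306). It had 6.75 to 9.19 CPM at 24 months and 5.47 to 9.79 CPM at 2 months, with a log2 fold change of 0.12 ± 0.148 (SE), and -0.26 with the covariate (adjusted p = 0.125).

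Peg3, Zdbf2 and Plagl1 encode zinc finger proteins of the paternal copy. Peg3 (chromosome 7, 6703892 to 6730431) was at 692 to 786 CPM at 24 months and 728 to 813 CPM at 2 months, and its log2 fold changes from 2 months were -0.02 at 9, 0.04 at 15 and -0.03 at 24 months, none past the test. With the hypothalamus covariate that of 24 months was -0.11 (adjusted p = 0.0357). Zdbf2 (chromosome 1, 63273265 to 63314576) had 67.1, 68.5, 63.3, 79.03 and 71.2 CPM at 24 months, against 92.5, 77.9, 105, 77.0 and 78.2 CPM at 15 months. The ages overlapped, since replicate 4 of 24 months lay above 3 libraries of 15 months. The log2 fold change of -0.31 ± 0.0911 (SE; edgeR adjusted p = 0.0211) lost its call without replicate 1 or 3 of 15 months or replicate 3 of 24 months (adjusted p = 0.0507 to 0.0579). With a GC correction it was -0.23 (adjusted p = 0.104), and the GC gap was 0.06 to 0.15 in the 24 month libraries and -0.24 to -0.08 in those of 15 months. Ndn passed the test at 24 against 15 months with that correction (0.15, adjusted p = 0.0177) and stood at 0.09 without it (adjusted p = 0.0887). Plagl1 (chromosome 10, 13060504 to 13131694), a zinc finger transcription factor known to regulate other imprinted genes, had 17.4 to 19.7 CPM at 24 months and 16.6 to 20.03 CPM at 2 months and passed no test among these ages.

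Cdkn1c and Grb10 restrain growth. Cdkn1c (chromosome 7, 143458339 to 143461050), an inhibitor of cyclin-dependent kinases expressed from the maternal copy, had 3.01 to 4.33 CPM at 24 months and 2.86 to 3.86 CPM at 2 months. The log2 fold change was 0.07 ± 0.128 (SE; adjusted p = 0.722). Grb10 (chromosome 11, 11930508 to 12038683), an adaptor that dampens insulin receptor signalling and is expressed from the paternal copy in neurons and the maternal one elsewhere, had 87.02 to 97.4 CPM at 24 months and 76.5 to 93.8 CPM at 2 months. That of Grb10 stood at 0.11 ± 0.0583 (SE; adjusted p = 0.2). The counts do not separate the parental copies of any member.

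Among libraries of the same age, the relation of no member to the hypothalamus markers passed a test adjusted over all genes. For each of the 20 libraries of 2 to 24 months, the log2 CPM of a gene was taken relative to the mean of its age and correlated with the summed marker level taken the same way. This comparison was chosen after the data were seen, and ran over 17348 genes with no count of 0 (two-sided permutation of libraries within ages, 100000 resamples). At an unadjusted p under 0.05 it held 6 of the 10 members by Pearson's r, beside 7.11% of all genes. With adjustment over all genes 12 genes, none of them a member, passed by Pearson's r and none by Spearman's rho.

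Magel2 had r = 0.84 (permutation p = 0.00017, adjusted p = 0.102) and rho = 0.723 (permutation p = 0.00198, adjusted p = 0.258), and r = 0.731 without the 2 libraries farthest from the median of Magel2. Dlk1 had r = 0.755 (permutation p = 0.00084, adjusted p = 0.186) and rho = 0.675 (permutation p = 0.0047, adjusted p = 0.354), and r = 0.709 without its 2 farthest libraries. Peg3 (r = 0.697), Ndn (0.745) and Grb10 (0.761) had an adjusted p of 0.119 to 0.209 by permutation, and Zdbf2 (r = 0.534) one of 0.655. Zfp57 had r = 0.195 (permutation p = 0.459, adjusted p = 0.965) and rho = 0.203 (permutation p = 0.448, adjusted p = 0.946). Snrpn (r = -0.44), Plagl1 (0.353) and Cdkn1c (-0.245) had an adjusted p of 0.749 to 0.938 by permutation. As a description with no test, the pair of members most alike within ages was Ndn and Grb10, with r = 0.865 and rho = 0.827 over the 20 libraries, which share the scaling. The deviations of Peg3 were small, since its standard deviation was 2.47% to 5.05% of the mean at each of these ages, against 11.2% to 24.3% for Magel2 and 14.6% to 24.4% for Dlk1.

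**Figure D3:**
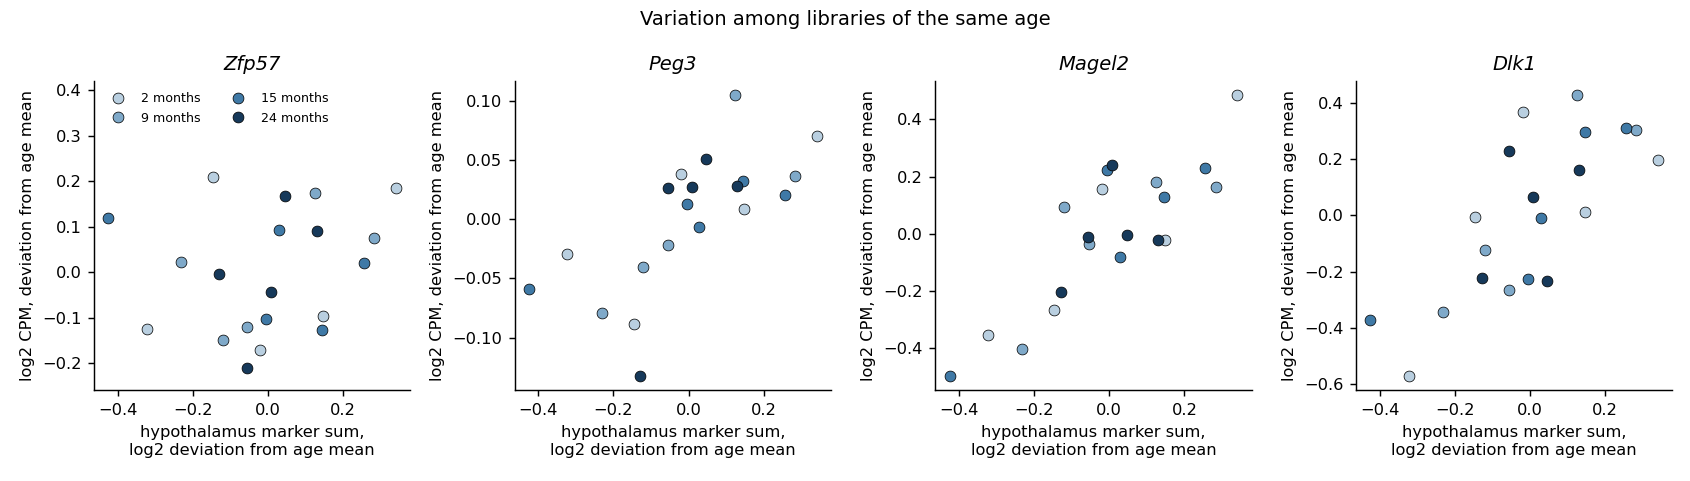
Log2 CPM of Zfp57, Peg3, Magel2 and Dlk1 relative to the mean of the age (vertical axes) against the summed level of 13 hypothalamus markers relative to the mean of the age (horizontal axes), for the 20 libraries of 2 to 24 months, shaded by age. Pearson's r with the markers is 0.697 for Peg3, 0.84 for Magel2, 0.755 for Dlk1 and 0.195 for Zfp57. No relation passed the test adjusted over all genes (adjusted p of 0.102 or more by Pearson's r).

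At 30 months Zfp57 remained low, and Peg3 and Zdbf2 were low in the 4 libraries that follow GC content. Zfp57 had 7.96, 6.60, 5.58, 5.37 and 5.63 CPM in replicates 1 to 5 of 30 months, all below the lowest library of 2 months. Against 2 months its log2 fold change was -0.98 ± 0.106 (SE; edgeR adjusted p = 3.53e-07), -0.69 ± 0.0902 with a GC correction (adjusted p = 1.79e-06) and -0.63 ± 0.152 without the 4 libraries (adjusted p = 0.00694), where 1 library is left at 30 months and is assumed to vary like the others. After GC correction the libraries stood at 7.73, 7.55, 6.78, 6.45 and 8.05 CPM at 30 months, and those of 24 months ran from 6.52 to 8.40 CPM, so that 4 of the 5 libraries of 30 months lay in that range and 1 below it. Against 24 months the log2 fold change was -0.32 (adjusted p = 0.0133), -0.05 with the correction (adjusted p = 0.669) and 0.02 without the 4 libraries (adjusted p = 0.969).

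Peg3 had 767 CPM in replicate 1 of 30 months and 460, 347, 366 and 262 CPM in replicates 2 to 5, against 728 to 813 CPM at 2 months. Replicate 1 lay inside the range of 2 months and the other 4 libraries lay below it. The log2 fold change was -0.82 ± 0.16 (SE; edgeR adjusted p = 0.000159), -0.65 with a GC correction (adjusted p = 0.000308) and -0.02 without the 4 libraries (adjusted p = 0.889). Zdbf2 had 63.4, 30.0, 21.8, 22.7 and 16.3 CPM in replicates 1 to 5, against 71.1 to 87.8 CPM at 2 months, and all 5 lay below. Its log2 fold change was -1.35 ± 0.218 (SE; adjusted p = 2.59e-05), -0.83 with the correction (adjusted p = 2.55e-05) and -0.32 without the 4 libraries (adjusted p = 0.285). Peg3 and Zdbf2 have the longest exons of the 10, with 13324 and 12659 bases. A correction for GC content and length was added after the data were seen. With it they stood at -0.53 and -0.73 (edgeR adjusted p = 0.000165 and 2.25e-05). In the 4 libraries both were lowest in replicate 5, which had the widest GC gap, at 1.61. The part of the GC gap in their low levels was not tested.

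Snrpn had 418, 445, 440, 422 and 542 CPM in replicates 1 to 5 of 30 months, against 364 to 387 CPM at 2 months, and the libraries did not overlap. Its log2 fold change was 0.27 ± 0.0515 (SE; edgeR adjusted p = 0.000114), 0.63 with a GC correction (adjusted p = 2.36e-05) and 0.15 without the 4 libraries (adjusted p = 0.0372). Ndn had 236, 288, 251, 259 and 362 CPM at 30 months and 241 to 269 CPM at 2 months. For Ndn the log2 fold change was 0.13 (adjusted p = 0.139), 0.61 with the correction (adjusted p = 0.00131) and -0.11 without the 4 libraries (adjusted p = 0.339). The correction moved both genes, whose transcripts have a GC content of 45.5% and 44.5%, away from 2 months, and the value without the 4 libraries lay nearer to it or past it. It also widened the spread among the 30 month libraries. Their SD went from 50.9 to 146 CPM for Snrpn and from 49.9 to 131.5 CPM for Ndn.

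The remaining members kept no call at 30 against 2 months under all treatments of the libraries. Plagl1 was at -0.36 (adjusted p = 0.00117) and at -0.12 with the GC correction (adjusted p = 0.194), and 0.01 without the 4 libraries. Dlk1 was at 0.53 (adjusted p = 0.0199), 0.37 with the correction (adjusted p = 0.117) and 0.41 without the 4 libraries (adjusted p = 0.479). Cdkn1c was at 0.43 (adjusted p = 0.0169), 0.11 with the correction (adjusted p = 0.55) and 0.36 without the 4 libraries (adjusted p = 0.341). Magel2 (-0.13) and Grb10 (-0.07) did not pass. In all, 3 members rose and 4 fell at 30 against 2 months, beside 28.5% and 29.5% of all genes, 58% in all. Against 24 months 3 rose and 4 fell, beside 25.5% and 29% of all genes, 54.5% in all. With the GC correction 5 of 10 were called against 2 months, where 45.9% of all genes were, and 6 against 24 months, where 41.2% were. With the correction for GC content and length the same numbers of members were called, where 46.1% and 42.1% of all genes were. The libraries did not overlap for Zfp57, Snrpn and Zdbf2 at 30 against 2 months, as for 23.9% of all genes, and for Snrpn at 30 against 24 months, as for 16.5%. Without the 4 libraries Zfp57 and Snrpn were called against 2 months, where 8.53% of all genes were, and none against 24 months (1 at an unadjusted p under 0.05), where 3.85% were.

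**Figure D4:**
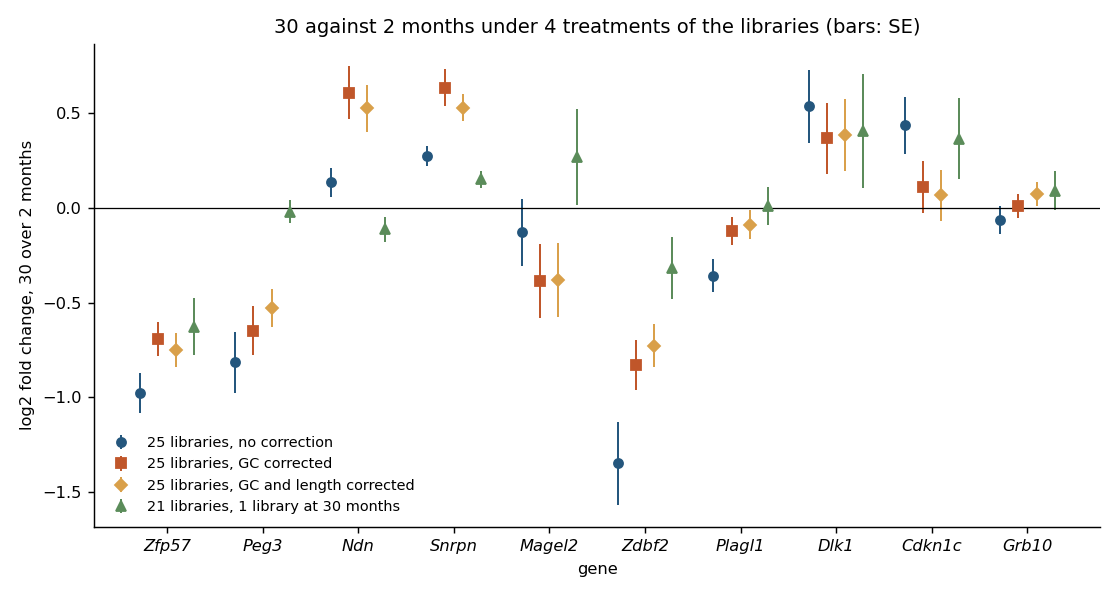
Log2 fold change of each member at 30 over 2 months (vertical axis) from all 25 libraries, from the same with a GC correction or a GC and length correction, and from the 21 libraries that keep 1 library at 30 months. Bars are standard errors. Zfp57 stays between -0.98 and -0.63 under all 4, while Peg3 runs from -0.82 to -0.02 and Ndn from -0.11 to 0.61.

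Other imprinted genes were called in both directions at 24 against 2 months. Beside them, 11% of all genes tested rose and 11.7% fell. Of 21 listed genes of the paternal copy 18 were tested, 4 rose and 2 fell, with a median log2 fold change of 0.0555. The Ras exchange factor gene Rasgrf1 (0.22, adjusted p = 3.64e-06), the nucleosome assembly gene Nap1l5 (0.23, adjusted p = 1.89e-05) and the translation regulator gene Impact (0.12, adjusted p = 0.00644) rose. Mest (-0.29, adjusted p = 0.000267) and Sfmbt2 (-0.40, adjusted p = 0.0137) fell. Of 20 listed genes of the maternal copy 18 were tested, 2 rose and 3 fell, with a median of -0.0106. Klf14 rose by 1.16 (adjusted p = 0.00139) from a level of 0.354 CPM at 2 months, and Trappc9 by 0.10, while Ago2 (-0.14), Copg2 (-0.09) and Igf2r (-0.10) fell. Of 9 listed imprinted long noncoding RNAs 8 were tested. Rian (-0.16), of the domain that holds Dlk1, and Snhg14 (-0.26), of the domain that holds Snrpn, fell, and Peg13 (0.08) rose. Peg13 lies within Trappc9, so without strand their reads cannot be told apart where they overlap.

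Of 18 listed genes of imprint maintenance 16 were tested, 8 fell and none rose at 24 against 2 months, where 11.7% of all genes fell. The list is wider than its name, since it also holds genes that oxidise methylated cytosine, so the count is not one of maintenance alone. Tet1, which oxidises methylated cytosine (-0.51, adjusted p = 9.29e-08), the histone methyltransferase gene Setdb1 (-0.23, adjusted p = 3.2e-05) and the chromatin remodeller gene Atrx (-0.20, adjusted p = 3.32e-05) had the smallest p. Trim28, the corepressor that Zfp57 recruits, stood at -0.06 (adjusted p = 0.083). At 15 against 2 months Trim28 was lower (-0.10, adjusted p = 0.0151), and at 9 against 2 months it did not pass (-0.04, adjusted p = 0.314). The median log2 fold change of the 16 at 24 against 2 months was -0.0847, beside 0.00241 over all genes tested. At 15 against 2 months 3 of the 16 rose and 6 fell, beside 6.1% and 6.95% of all genes, with a median of -0.00803. At 9 against 2 months 1 rose and 5 fell, beside 7.92% and 6.96% of all genes, with a median of -0.0733. Of 10 genes of the ubiquitin ligase, retromer and WASH complexes that act with Magel2, Washc2 rose (0.10, adjusted p = 0.0392) and Trim27 fell (-0.19, adjusted p = 0.0037), with a median of -0.00541.

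**Figure D5:**
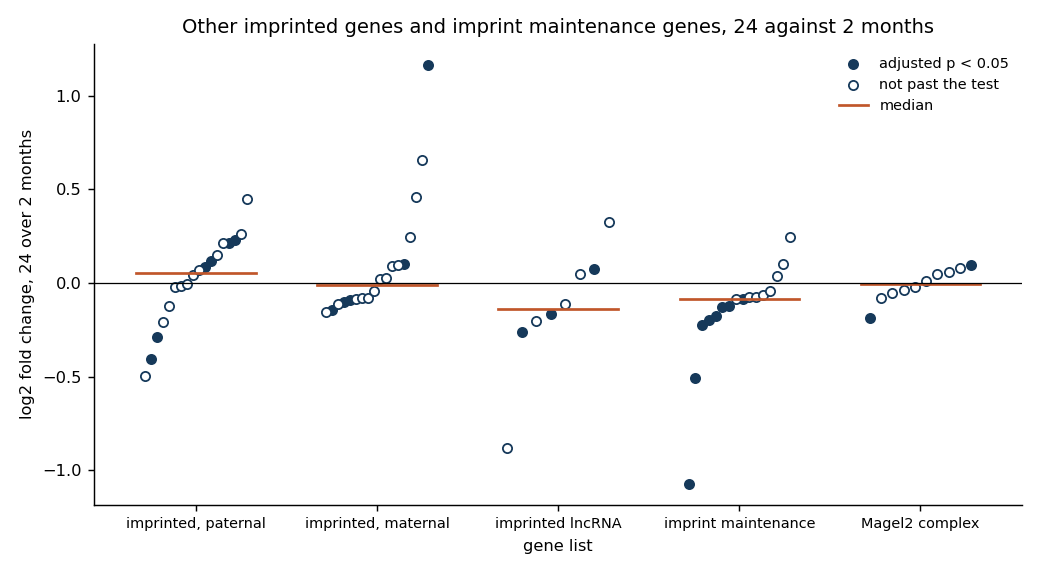
Log2 fold change at 24 over 2 months (vertical axis) of the other imprinted genes by parental copy, imprinted long noncoding RNAs, imprint maintenance genes and genes that act with Magel2 (horizontal axis). Filled points passed an adjusted p of 0.05 and lines are medians. All 8 called genes of the imprint maintenance list, which also holds genes that oxidise methylated cytosine, lie below 0. The medians of the 5 lists run from -0.138 to 0.0555.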

How the data were processed

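The authors deposited a table of counts per Ensembl gene, not normalized. Per the submitters' processing notes, bases were called with CASAVA 1.7, reads aligned with STAR 2.4.1d to GRCm38 and counted with featureCounts 1.4.6-p4. Per the labels' protocols the libraries were made with Illumina's TruSeq RNA kit. The annotation release and strand setting are not given in the sources used here. The deposited RPKM values were not used here. Of 47729 rows 47310 matched GENCODE M21 (GRCm38), which gave symbols, coordinates, exon lengths and, from each gene's longest transcript, its GC content.

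Counts were analysed with edgeR 4.0.16 in R 4.3.3 (filterByExpr, TMM, robust quasi-likelihood test, two-sided, Benjamini-Hochberg over all genes tested, threshold 0.05). The 20 libraries of 2 to 24 months entered 1 fit with a mean per age and another with a slope in months. Comparisons with 30 months used all 25 libraries. The GC correction was an offset per library from a robust spline (5 degrees of freedom) of log2 ratios on GC content. DESeq2 1.42.0, other scalings, no filter and leaving out each library were the alternatives. The fits were tested on simulated data. Permutations used numpy 2.4.6. No columns of the counts table were left out. The labels do not state that each library is a separate mouse, so p-values measure the spread between these libraries, which may be technical. Replicates were numbered in accession order.

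The members, lists and settings were chosen with earlier results of these data known. All 10 members are named. From each other list up to 3 genes past the test at 24 against 2 months are named in each direction, by smallest p, with Trim28. For likeness, the 5 genes with the highest Pearson correlation of log2 CPM with Zfp57, and with the other member of the smallest p for the slope, are named among genes with a mean of at least 2 CPM, without predicted genes and pseudogenes.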

Additional observations from a re-analysis of the deposited data

Results flagged for a closer look

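Of 50 groups of 5 libraries (10 members at 5 ages), 2 held a library far from the others, where chance gives about 1 in 20. The library of 24 months numbered 3 had 692 CPM of Peg3, while the other 4 of that age had 773 to 786 CPM. The library of 30 months numbered 5 had 542 CPM of Snrpn, while the other 4 had 418 to 445 CPM. It also had the widest GC gap of the series, at 1.61.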

How the results depend on the processing

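Zfp57 kept its call at 24 and at 15 against 2 months and for the slope under every alternative, with log2 fold changes of -0.70 to -0.60 at 24 months when 1 library was left out. At 9 against 2 months it lost the call when all 25 libraries shared the fit (-0.34, adjusted p = 0.0866). Dlk1 kept its call at 24 against 2 months except with the hypothalamus covariate, at 0.58 to 0.82 with 1 library left out. The number of members called, 2 at 9, 15 and 24 against 2 months and 1 at 24 against 15 months, became 0, 1, 2 and 0 with all 25 libraries in the fit, and 6 for the slope with 30 months included, against 2. In the same order 2.38%, 1.26%, 5.23% and 1.13% of all genes were called with all 25 libraries. For the slope 47% of all genes were called, against 16.8% without 30 months. The 2 counts of 0 had 1 member each at an unadjusted p under 0.05. At 9 against 2 months no setting, the hypothalamus covariate included, called more than 16.6% of all genes, the share with the GC and length correction. With the hypothalamus covariate 12.8% of all genes were called at 24 against 2 months and 14.6% at 24 against 15 months. The number of members called in that fit became 4 at 9 and at 24 against 2 months and 2 at 24 against 15 months. Without 30 months replicates 2 to 5 it became 2 against 2 months and 0 against 24 months, from 7 each. Leaving out 1 library gave 1 to 3 members at 9 against 2 months, 0 to 3 at 24 against 15 months and 5 to 8 in both comparisons of 30 months, and no change elsewhere. Of all genes, 11.6% to 15.4% were then called at 9 against 2 months and 17.3% to 25% at 24 against 15 months. At 30 months 51.2% to 64.6% were called against 2 months and 47.7% to 63% against 24 months. Of members called with all 25 libraries, signs turned without the 4 libraries for Plagl1 at 30 against 2 months (0.00996) and for Zfp57 (0.0218), Peg3 (0.00557) and Ndn (-0.0306) at 30 against 24 months. Of 470 values of single members among 2 to 24 months under other settings 447 kept their side of the threshold, and of 140 with 30 months 111 did. The share of all genes called at 24 against 2 months ran from 5.23% with all 25 libraries in the fit to 22.9%, and at 30 against 2 months from 8.53% without the 4 libraries to 60.2%. With the GC correction it was 8.36% at 15 against 2 months, 5.34% at 15 against 9 months and 12.4% at 24 against 15 months, and with the hypothalamus covariate 12.8% at 24 against 2 months. The cause of these shifts was not tested. No paired analysis was possible because the labels give no number that ages share. Dlk1, with 20 to 86 counts per library, is limited most by depth.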
